A study of Mus musculus with 6 samples.

Results

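The genes described here are those of MHC class II, the cell-surface complex that presents peptides to CD4 T cells, with the factors that control their transcription. They were chosen by symbol, as the classical class II genes and their known regulators, and all 10 were found among the 24421 rows of the deposited count table. They are the class II chain genes H2-Aa, H2-Ab1 and H2-Eb1, the peptide-exchange genes H2-DMa and H2-DMb1, the invariant chain gene Cd74, and the regulators Ciita, Rfx5, Rfxap and Rfxank. The series compares cultured group 2 innate lymphoid cells (ILC2), tissue lymphocytes without antigen receptors, from the brains of aged and young C57BL/6 mice. The aged group holds 3 RNA-seq libraries from mice of 20 to 22 months, and the young group holds 3 libraries from mice of 2 to 3 months. Cells of both groups were sorted by ILC2 surface markers and grown for 2 weeks in serum-containing medium with stem cell factor, IL-33, IL-2 and IL-7, so the comparison concerns expanded cultures and not cells fresh from the brain. Whether each library stands for its own animal, a pool or a culture is not stated in the labels. The p-values therefore measure the spread between these libraries, which may be technical.

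A class II molecule is a pair of an alpha and a beta chain, and in mice of this strain the complete pair is I-A, made from H2-Aa and H2-Ab1. H2-Eb1 encodes the beta chain of I-E, whose alpha chain gene is a non-functional pseudogene, H2-Ea-ps, in C57BL/6. The invariant chain, from Cd74, blocks the peptide groove and guides new class II molecules to endosomes, where H2-DM removes its last fragment and H2-O restrains H2-DM. Transcription of these genes rests on conserved S, X and Y boxes before their start sites, where the RFX complex (RFX5, RFXAP and RFXANK), CREB and NF-Y assemble. CIITA does not bind DNA and is recruited by that assembly as the co-activator. Interferon gamma is a classical inducer of Ciita, through JAK kinases and IRF1. ILC2 of several mouse tissues are known to carry class II.

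Promoter sequences are shown because the X and Y boxes are the elements that tie the class II genes to the 4 regulators. RefSeq promoters of GRCm38.p6 were at hand for 6 of the 10 members, H2-Aa, H2-Eb1, H2-DMa, H2-DMb1, Rfx5 and Rfxank. The 250 bases before each start were searched on both strands for the X-box letters, AGNNAC joined directly to NGAT, and for the Y-box core CCAAT, which reads ATTGG on the other strand, and the letters do not overlap. In the lines below the matched letters are in capitals. H2-Eb1 carries the X-box letters followed by the reversed Y-box core, its paralog H2-Eb2 carries the same arrangement, and in H2-Aa only the Y-box core matched.
H2-Eb1, chr17:34305765-34305817, plus strand: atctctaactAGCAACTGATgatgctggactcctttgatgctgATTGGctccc
H2-Eb2, chr17:34325532-34325584, plus strand: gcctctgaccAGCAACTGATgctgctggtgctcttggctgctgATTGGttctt
H2-Aa, chr17:34287862-34287916, minus strand: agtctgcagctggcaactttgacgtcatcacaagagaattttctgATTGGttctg

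The X and Y letters lay 23 bases apart in H2-Eb1 and in H2-Eb2, and 24 bases apart in H2-DMb1, whose X-box letters read AGTAACTGAT. In H2-DMb1 the matched stretch lay before the RefSeq start but within exons of the gene in the GENCODE annotation, so it is not printed. Of 32851 promoters in the table, 2.24% held the X-box letters and 33.8% held the Y-box core. The X-box letters followed after 10 to 40 bases by ATTGG, the Y-box core read from the opposite strand, were found in 17 promoters, or 0.0517%, and 3 of these belonged to the class II genes H2-Eb1, H2-DMb1 and H2-Eb2. Neither H2-DMa promoter held the X-box letters, nor did those of Rfx5 and Rfxank. A match describes letters only, and no match says only that these letters were not in that window.

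Library totals ran from 17314428 to 17796301 counts in aged libraries and from 16477157 to 20804291 counts in young libraries. Values are CPM, counts divided by TMM-scaled library size, and the test is the quasi-likelihood test of edgeR, adjusted by Benjamini-Hochberg over the 11805 genes that passed a filter on low counts. At an adjusted p under 0.05, 19.4% of tested genes were called, 11.2% as higher and 8.14% as lower in aged libraries, and groups without overlap were seen in 38.2%. All 12 ILC2 markers were detected in both groups, and their summed level was 12729 to 14858 CPM in aged and 12694 to 15353 CPM in young libraries. The similar sums do not show equal markers. Mean Id2 was 6509 CPM in aged against 3737 CPM in young libraries, and mean Il5 3227 against 5331 CPM. Of the 12 markers 1 rose, Id2, and 6 fell, Gata3, Il1rl1, Il2ra, Il5, Icos and Klrg1, beside the 11.2% and 8.14% above. Klrg1 had 0, 7 and 61 counts in aged libraries, against 1467, 2026 and 1979 in young libraries.

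The 3 class II chain genes rose together and by the largest amounts among the 10 genes. H2-Ab1, the beta chain of I-A, had 1802, 1714 and 1267 CPM in aged libraries, against 60.7, 55.4 and 64.3 CPM in young libraries. H2-Aa, its alpha chain, had 889, 995 and 831 CPM in aged libraries, against 27.8, 27.1 and 18.0 CPM in young libraries. H2-Eb1, the beta chain of I-E, had 481, 475 and 430 CPM in aged libraries, against 25.8, 22.6 and 22.6 CPM in young libraries. In each of these genes every aged library lay far above every young library, and the lowest aged value was several times the highest young value.

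As means, H2-Ab1 was at 1594 ± 287 CPM in aged and 60.1 ± 4.48 CPM in young libraries (SD, n = 3 each), which is 26.5-fold. H2-Aa was at 905 ± 83.2 and 24.3 ± 5.45 CPM, 37.2-fold, and H2-Eb1 at 462 ± 28.04 and 23.7 ± 1.86 CPM, 19.5-fold, each with aged before young. The log2 changes were 4.73 ± 0.17 for H2-Ab1, 5.22 ± 0.20 for H2-Aa and 4.29 ± 0.16 for H2-Eb1 (SE), and the edgeR adjusted p was at most 1.54e-07. No exon of these 3 genes overlaps another annotated gene, and no stretch of 75 bases of their transcripts occurs in the transcripts of another gene. In bulk RNA, more cells with class II transcripts and more transcripts per cell cannot be told apart.

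H2-Ea-ps, the pseudogene of the missing I-E alpha chain, had 0 counts in the 6 libraries, which allows up to 0.122 to 0.202 CPM per library (3 counts, counting error only). H2-Eb2, the beta chain paralog whose promoter letters are shown above, had 11, 0 and 33 counts in aged libraries and 0 counts in the 3 young libraries, and was too low to be tested. H2-Eb1 thus rose without a measurable I-E alpha transcript beside it.

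The invariant chain gene Cd74, which lies on another chromosome than the class II region, rose as well but by less. It had 1197, 1035 and 996 CPM in aged libraries, against 149, 153 and 111 CPM in young libraries. Groups did not overlap, and the log2 change was 2.97 ± 0.16 (SE; edgeR adjusted p = 1.65e-06), or 7.82-fold between the means of 1076 ± 107 CPM in aged and 138 ± 23.5 CPM in young libraries (SD, n = 3 each).

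Both H2-DM genes rose, with different sizes. H2-DMb1, the beta chain of the peptide exchanger, had 107, 122 and 84.2 CPM in aged libraries, against 20.7, 11.3 and 11.8 CPM in young libraries. H2-DMa, its alpha chain, had 250, 204 and 168 CPM in aged libraries, against 83.5, 70.5 and 64.2 CPM in young libraries. The groups did not overlap in either gene. The log2 change was 2.84 ± 0.29 for H2-DMb1 and 1.51 ± 0.20 for H2-DMa (SE; edgeR adjusted p = 9.64e-05 and 0.000404). Counts of H2-DMb1 are uncertain where reads were shared with its near copy H2-DMb2, which holds 15.8% of its 75-base stretches. Of the exon length of H2-DMa, 10.4% lies over Brd2 on the opposite strand.

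None of the 4 regulators passed the test, in either direction. Ciita, the co-activator, had 7.02, 11.2 and 1.84 CPM in aged libraries, against 10.95, 3.01 and 9.96 CPM in young libraries. These groups overlapped, and the lowest aged Ciita value stood in aged library 3. That library also held the lowest aged values of H2-Aa, H2-Ab1 and H2-Eb1, at 831, 1267 and 430 CPM. These values still lay above every young value of the same genes. The log2 change of Ciita was -0.25 ± 0.76 (SE; edgeR adjusted p = 0.866) with an error several times its size. The estimate became 0.19 without aged library 3 and 0.42 with length and GC offsets, and it ran from -0.85 to 0.42 over 17 alternatives, none of which passed. Ciita is read from several promoters in different cell types, and a count per gene does not separate them.

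Rfx5, the DNA-binding subunit of the RFX complex, had 0.199, 3.70 and 8.89 CPM in aged libraries, against 11.8, 10.99 and 13.8 CPM in young libraries. The raw counts were 3, 55 and 140 in aged and 226, 270 and 271 in young libraries. Every aged value lay below every young value, with a wide spread among the aged libraries, and the gene did not pass, at a log2 change of -1.51 ± 0.92 (SE; edgeR adjusted p = 0.3004). The estimate was -0.95 without aged library 1 and -2.64 without aged library 3. Of its exon length, 26.8% lies over B230398E01Rik on the opposite strand, so part of its counts is uncertain.

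The other RFX subunits had higher means per kb of exon than Rfx5 in both groups. Rfxap, the RFX-associated protein gene, had 54.6, 56.4 and 37.7 CPM in aged libraries, against 31.7, 37.0 and 29.6 CPM in young libraries. Its groups nearly touched without overlapping, and the log2 change was 0.60 ± 0.26 (SE; edgeR adjusted p = 0.137). Rfxank, the ankyrin-repeat subunit, had 44.4, 58.5 and 81.6 CPM in aged libraries, against 54.9, 56.5 and 50.1 CPM in young libraries. Its groups overlapped, with a log2 change of 0.19 ± 0.25 (SE; edgeR adjusted p = 0.665) that turned to -0.22 with library totals as the only scaling and to -0.07 without aged library 3. Exons of Rfxank lie over Nr2c2ap on the opposite strand for 33.8% of their length.

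Of the 10 genes 6 rose, none fell and 4 did not pass, beside 11.2% higher and 8.14% lower among all tested genes. Groups did not overlap in 8 of the 10, against 38.2% of all tested genes, and in 7 of these 8 the aged libraries were the higher, against 19.3% of all tested genes. Rfx5 was the exception. The median log2 change was 3.63 over the 6 presentation genes and -0.03 over the 4 regulators, beside -0.10 over all tested genes. The 10 genes all passed the filter on low counts.

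**Figure D1:**
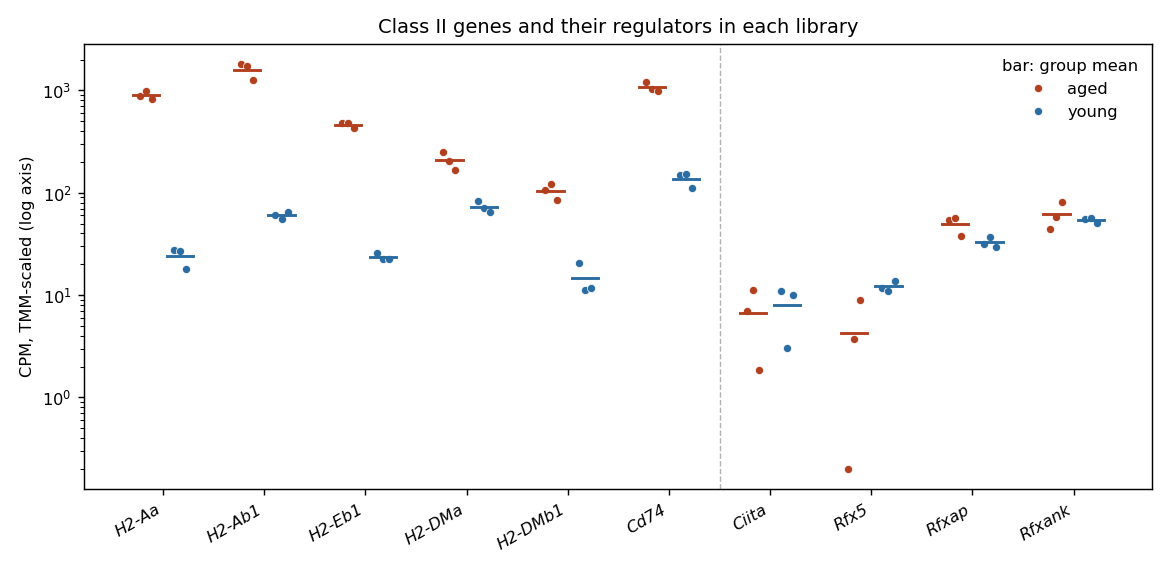
TMM-scaled CPM on a log axis for the 10 genes, with 3 aged libraries (red, left) and 3 young libraries (blue, right) as points and the group mean as a bar. The 6 presentation genes left of the dashed line separate by group. Their means lie from 37.2-fold apart for H2-Aa (905 CPM aged, 24.3 CPM young) to 2.85-fold apart for H2-DMa (208 CPM aged, 72.7 CPM young). Rfxap also separates, with aged libraries higher, and Rfx5 separates with aged libraries lower. Ciita, Rfxap, Rfxank and Rfx5 stay at or below 81.6 CPM in every library.

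Setting each presentation gene against each regulator within a library removes the library scaling. The log2 ratio of raw counts (0.5 added to each) was higher in aged than in young libraries for all 24 pairs, by 0.92 to 7.86. In 23 of the 24 the groups did not overlap, and the two-sided exact permutation p was 0.1, the smallest that 20 arrangements of 3 against 3 allow (adjusted over the 24 pairs, 0.104). The exception was H2-DMa over Ciita, where the groups overlapped (exact permutation p = 0.2). No pair could reach 0.05 in this design. The 24 pairs share 10 genes and are not independent. Each of the 6 presentation genes also separated by group on its own, as did 38.2% of single tested genes, so the count of 23 largely restates the single-gene values.

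H2-Ab1 over Ciita stood at 7.997, 7.26 and 9.40 on the log2 scale in aged libraries, against 2.47, 4.19 and 2.69 in young libraries. H2-Ab1 over Rfxap stood at 5.04, 4.93 and 5.07 in aged libraries, against 0.94, 0.58 and 1.12 in young libraries. Against Rfx5 the aged libraries spread over several log2 units, at 12.92, 8.84 and 7.15, while the young libraries stood at 2.36, 2.33 and 2.22. Transcripts of H2-Ab1 were thus higher in every aged library than in any young library relative to these 3 regulators, and the size of the difference varied with the regulator used.

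**Figure D2:**
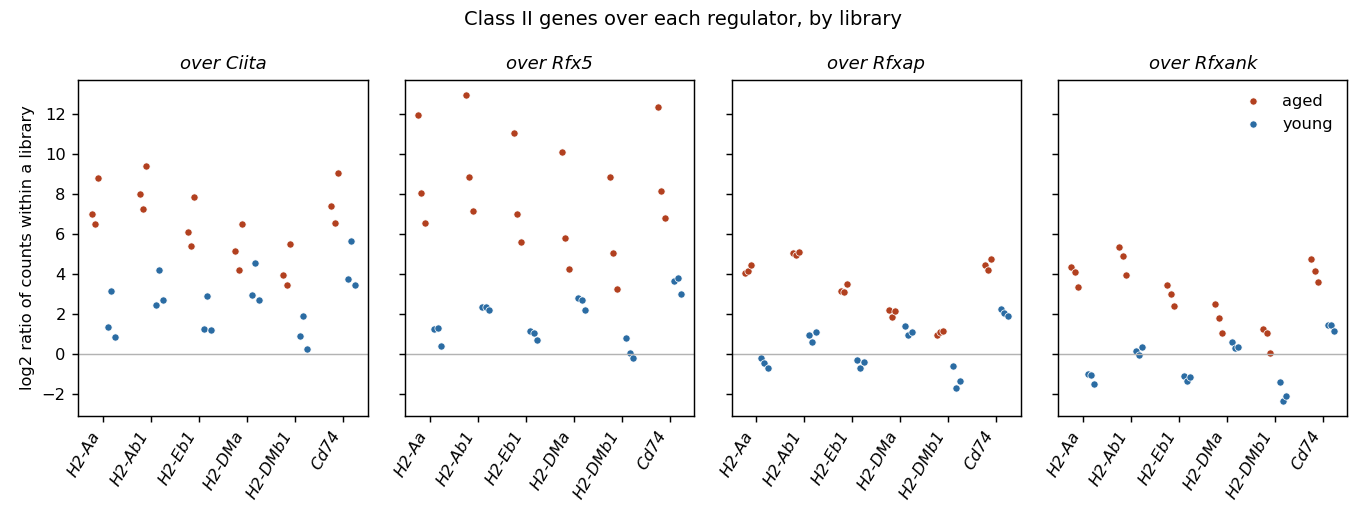
Log2 ratio of counts of each class II gene over Ciita, Rfx5, Rfxap and Rfxank, per library (aged red and left, young blue and right). Aged points lie above young points in 23 of 24 pairs, the exception being H2-DMa over Ciita, and the aged spread is widest over Rfx5.

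Levels can be set between genes once divided by exon length. In aged libraries H2-Ab1 led with 1315 CPM per kb, followed by H2-Aa with 802 and Cd74 with 760 CPM per kb, whose ranges overlapped. H2-Eb1 came next with 277 CPM per kb. H2-DMa and H2-DMb1 followed with 77.8 and 74.4 CPM per kb and overlapping ranges, then Rfxap with 22.9 and Rfxank with 16.9 CPM per kb, which also overlapped. Rfx5 and Ciita were last with 0.879 and 0.812 CPM per kb and did not separate.

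The order in young libraries differed. Cd74 led with 97.2 CPM per kb, ahead of H2-Ab1 with 49.6 CPM per kb, and these ranges did not overlap. Below them the 6 genes from H2-DMa to H2-DMb1 formed a run of neighbours with overlapping ranges, H2-DMa at 27.3, H2-Aa at 21.6, Rfxap at 15.2, Rfxank at 14.8, H2-Eb1 at 14.2 and H2-DMb1 at 10.4 CPM per kb. Rfx5 stood at 2.51 and Ciita at 0.970 CPM per kb. In young cultures the means of H2-Eb1 and H2-DMb1 were below those of Rfxap and Rfxank, and in aged cultures all 6 presentation genes lay above every regulator.

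The sizes of change differed among the 6 presentation genes when set against each other within a library. H2-Aa over H2-DMa stood at 1.83, 2.28 and 2.30 on the log2 scale of raw counts in aged libraries, against -1.58, -1.38 and -1.83 in young libraries, a difference of 3.74. H2-Ab1 over Cd74 stood at 0.59, 0.73 and 0.35 in aged libraries, against -1.29, -1.47 and -0.78 in young libraries, a difference of 1.74. In both ratios every aged library lay above every young library. H2-DMa over H2-DMb1, the alpha and beta chains of 1 molecule, stood at 1.22, 0.75 and 0.9997 in aged libraries, against 2.01, 2.64 and 2.44 in young libraries, a difference of -1.37. The partners H2-Aa and H2-Ab1 differed less, at -1.02, -0.79 and -0.61 in aged libraries, against -1.12, -1.03 and -1.83 in young libraries. Over the 15 pairs, a set added after the values were seen, groups did not overlap in 14 (two-sided exact permutation p = 0.1, the smallest possible, and 0.107 adjusted over the 15). H2-DMb1 over Cd74 was the exception, with a difference of -0.10 and an exact permutation p of 0.8. These 15 pairs share 6 genes and are not independent.

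Among 13 tested genes of class II presentation outside the 10, 7 rose, 1 fell and 5 did not pass, beside 11.2% higher and 8.14% lower among all tested genes. Their median log2 change was 0.93, beside -0.10 over all tested genes. The other members of the class II family were prominent. H2-DMb2, the near copy of H2-DMb1, had 1262, 1359 and 1162 counts in aged libraries, against 106, 72 and 44 in young libraries, a log2 change of 4.54 ± 0.37 (SE; edgeR adjusted p = 1.67e-05). H2-Oa, the alpha chain of the H2-DM inhibitor H2-O, had 752, 1089 and 735 counts in aged and 374, 295 and 270 counts in young libraries and rose by 1.91 on the log2 scale, with 22.8% of its exons over BC051537 on the opposite strand. H2-Ob, its beta chain, had 239, 207 and 33 counts in aged and 14, 0 and 0 counts in young libraries. Its call (edgeR adjusted p = 0.0288) was lost without aged library 1, aged library 2, young library 2 or young library 3 and in limma-voom, with an adjusted p of up to 0.0876.

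Proteases that trim the invariant chain and cut antigen moved in different directions. Ctsd, the aspartic protease cathepsin D, rose to 1893 ± 267 CPM in aged libraries, against 890 ± 95.2 CPM in young libraries (SD, n = 3 each; log2 change 1.09, edgeR adjusted p = 0.000359), with 34.4% of its exons shared with Gm49369 on the same strand. Lgmn, the asparagine endopeptidase legumain, fell to 65.3 ± 3.23 CPM in aged libraries, against 168 ± 28.7 CPM in young libraries (log2 change -1.36, adjusted p = 0.0005). Ctss, cathepsin S, the main invariant chain protease of bone marrow-derived presenting cells, was at 68.1 ± 6.67 and 56.4 ± 13.6 CPM, aged before young, and did not pass (adjusted p = 0.474). Ifi30, the lysosomal thiol reductase GILT, was at 48.9 ± 3.61 and 42.4 ± 6.86 CPM in the same order and did not pass (adjusted p = 0.611).

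Further genes of this list that rose were Ctsl, the cathepsin of thymic epithelium, by 0.98, the tetraspanin Cd63 by 0.93 and the flippase subunit Tmem30a by 1.01 on the log2 scale. The call of Ctsl was lost without aged library 1, aged library 2 or young library 2 and with library totals as the only scaling. That of Cd63 was lost with the length and GC offsets, at a log2 change of 0.37. Ctsb, Cd82 and Sppl2a did not pass, with log2 changes of 0.12, 0.31 and -0.03.

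Of 20 tested factors of the class II enhanceosome and of Ciita control, 2 rose, 3 fell and 15 did not pass, beside 11.2% higher and 8.14% lower among all tested genes, so the count that rose was near the background. The median log2 change was -0.57, beside -0.10 over all tested genes. With the length and GC offsets it was -0.06, beside 0.05 over all tested genes, and 0 genes of the list were called lower. Irf8, an interferon regulatory factor of myeloid and B cells, had 582, 672 and 533 counts in aged libraries, against 115, 321 and 145 in young libraries. Its groups did not overlap, and it rose by 2.15 ± 0.37 on the log2 scale (SE; edgeR adjusted p = 0.00239), a call kept in all 17 alternatives. Nfyb, a subunit of the Y-box factor NF-Y, rose by 0.80 (adjusted p = 0.0173), a call lost without aged library 3, young library 1 or young library 2 and with library totals as the only scaling. The other NF-Y subunits Nfya and Nfyc and the X2-box factor Creb1 did not pass, with log2 changes of -0.60, -0.59 and -0.26.

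The genes of this list that fell were Crebbp, the acetyltransferase CBP, by 1.69, Ctcf, an insulator factor, by 0.82, and Dnmt3a, a DNA methyltransferase, by 2.08 on the log2 scale. None of these 3 was called with the length and GC offsets. Without young library 2 none was called either. Crebbp and Ctcf were also lost without aged library 2, aged library 3, young library 1 or young library 3, while all 3 were called without aged library 1. Nlrc5, the class I counterpart of Ciita, was at 30.8 ± 4.56 CPM in aged and 45.2 ± 4.72 CPM in young libraries (SD, n = 3 each; log2 change -0.55, adjusted p = 0.158). Prdm1, which represses Ciita in plasma cells, and Irf4 did not pass, with log2 changes of -0.70 and -0.29. Spi1, the myeloid and B cell factor PU.1, had 0, 26 and 0 counts in aged and 0, 4 and 0 counts in young libraries.

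Among genes of the interferon gamma axis more fell than rose. Of 23 tested members 13 fell, 1 rose and 9 did not pass, with a median log2 change of -1.18, beside 8.14% of all tested genes called lower. Ifng itself had 0 counts in the 3 aged libraries and 87, 170 and 207 counts in young libraries. With 3 counts in all as the floor for the aged group, it was at least 112-fold lower there, and 25.9% of its exons are shared with Gm49751 on the same strand. The interferon gamma receptor chains fell too. Ifngr1 had 613, 599 and 185 counts in aged libraries, against 1769, 2131 and 2762 in young libraries (log2 change -1.79 ± 0.41, SE; edgeR adjusted p = 0.0106). Ifngr2 had 316, 379 and 488 counts in aged libraries, against 1046, 1523 and 1635 in young libraries (log2 change -1.37 ± 0.26, SE; adjusted p = 0.00442).

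Some signal carriers and targets of the receptor also fell, while Jak2, Gbp3, Gbp5, Gbp6, Gbp7, Irgm2, Tgtp1 and Tgtp2 did not pass. Jak1, a kinase of the receptor, and Irf1, a transcription factor, fell by 0.97 and 0.83 on the log2 scale. Iigp1, an interferon-inducible GTPase gene, had 0 counts in aged libraries and 189, 118 and 467 counts in young libraries, and was at least 195-fold lower in the aged group by the same floor. Igtp, Irgm1 and Gbp4, further GTPases of this family, fell by 1.18, 1.51 and 1.31, and Cxcl10, a chemokine gene, had 26, 8 and 0 counts in aged and 338, 119 and 485 counts in young libraries. Irf2 and Gbp2 fell by 1.19 and 1.22.

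The log2 change of Jak2 was -0.53, Socs1 did not pass at -0.03, and Socs3, a feedback inhibitor of cytokine receptors, rose by 0.84. The number of genes that fell ranged from 8 to 18 over the alternatives, with 8 under the length and GC offsets, where Jak1, Irf1, Irf2 and Gbp2 were among those no longer called. Ifng, Ifngr1, Ifngr2, Gbp4, Iigp1, Igtp and Irgm1 were called lower in all 17 alternatives. Single libraries decided several further calls. Socs3 was lost without aged library 1, aged library 2 or young library 1. Cxcl10 was lost without aged library 2, young library 1 or young library 3. Irf1 and Irf2 were lost when any library except aged library 3 was left out, and Gbp2 when any except aged library 2 was.

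**Figure D3:**
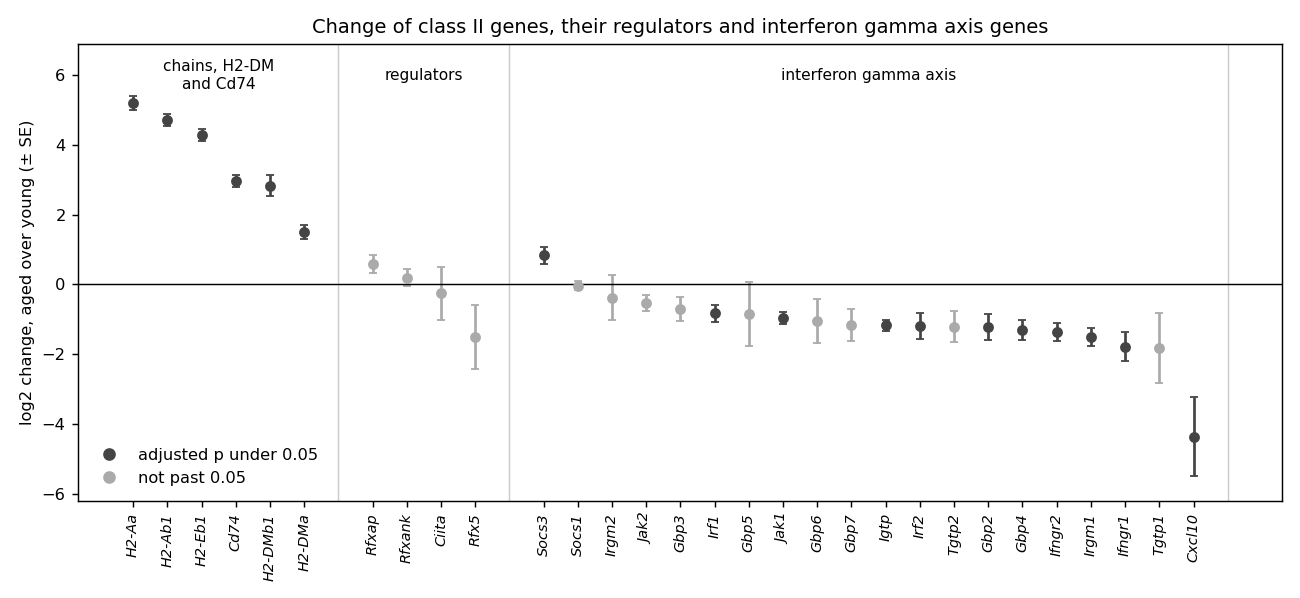
Log2 change (aged over young) with its standard error for the 6 presentation genes, the 4 regulators and 20 of the 23 tested interferon gamma axis genes; dark points passed an adjusted p of 0.05. Presentation genes lie between 1.51 and 5.22, regulators between -1.51 and 0.60, and the interferon axis between -4.37 and 0.84; Ifng and Iigp1 are left out because they had 0 counts in aged libraries, and 1 further tested gene of the list is not drawn.

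Of the costimulatory ligands that accompany class II on professional presenting cells, none passed as higher. Of 8 listed genes 5 were tested, 1 fell and 4 did not pass, beside 11.2% higher and 8.14% lower among all tested genes. Cd80 had 22, 42 and 46 counts in aged and 22, 51 and 70 counts in young libraries, and Cd86 had 18, 59 and 81 counts in aged and 90, 170 and 136 counts in young libraries. Neither passed, nor did Icosl and Pdcd1lg2, with log2 changes of 0.08 and 0.01. Cd83 had 0 counts in the 6 libraries, Cd40 had 1, 0 and 56 in aged and 0, 14 and 0 in young libraries, and Tnfsf4 had 0 in aged and 0, 30 and 0 in young libraries. Cd274, the inhibitory ligand PD-L1, had 32, 46 and 97 counts in aged and 351, 379 and 172 counts in young libraries (log2 change -1.90, edgeR adjusted p = 0.0484). Its call was lost in 11 of 17 alternatives, among them each removal of a library except aged library 3.

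Markers of other class II-bearing cells were measured beside these results, and their part in them was not tested. Of 10 B cell markers 6 had 0 counts in every library, among them Cd79a, Ms4a1 and Pax5. The list summed to 44.7 to 62.8 CPM in aged and 14.9 to 22.9 CPM in young libraries, mostly from Cd79b. Ebf1, an early B cell factor, had 231, 116 and 60 counts in aged libraries and 0 in young libraries. Of 10 dendritic cell markers Clec9a, Cd209a and Siglech were at 0, and Itgax, Flt3 and Zbtb46 had at most 49 counts in any library. That list summed to 430 to 486 CPM in aged and 232 to 274 CPM in young libraries, almost all from Ccr7 and from Batf3, which rose to 317 ± 24.9 CPM in aged libraries, against 67.4 ± 13.4 CPM in young libraries (SD, n = 3 each).

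Of 13 microglial and macrophage markers, Csf1r, C1qa, C1qc, Mrc1 and Fcgr1 had 0 counts in every library. The list summed to 60.8 to 99.0 CPM in aged and 11.4 to 21.7 CPM in young libraries. Most of the aged sum came from Tmem119, with 748, 1002 and 570 counts in aged and 2, 47 and 0 in young libraries. P2ry12 had 299, 243 and 163 counts in aged and 105, 35 and 11 in young libraries, and its call was lost in 6 of 17 alternatives. Lyz2 had 95, 178 and 156 counts in aged and 0 in young libraries, while Adgre1 had 0 in aged and 79, 48 and 34 in young libraries. Cx3cr1 had 0, 0 and 22 counts in aged and 110, 119 and 14 in young libraries and did not pass. Aif1 and Cd68 did not pass either, with log2 changes of -0.30 and -0.26. The sums of these 3 lists were thus higher in every aged library than in any young library, through a few members, with defining members at 0. T cell markers summed to 6.76 to 14.7 CPM in aged and 6.78 to 12.99 CPM in young libraries. The listed T cell markers Trac, Trbc1 and Trbc2 had no row among the deposited counts, so this sum leaves them out. Mast cell markers summed to 0.596 to 8.48 CPM in aged and 2.24 to 11.9 CPM in young libraries, and the 5 NK cell and ILC1 markers were at 0. Markers of endothelial, glial and other brain cells summed to 143 to 182 CPM in aged and 87.8 to 138 CPM in young libraries, with Cdh5, Cldn5, Aqp4 and Rbfox3 at 0. These sums did not overlap either, and came mostly from Pecam1, at 150 CPM in aged and 86.7 CPM in young libraries (edgeR adjusted p = 0.0199). Higher aged values without overlap were seen in 19.3% of all tested genes.

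Along chromosome 17 (GRCm38, 34092340 to 34344645) the region from H2-Oa to H2-Ea-ps holds 15 genes of the table, 13 of them tested. Of these 10 rose and 1 fell, beside 11.2% and 8.14% of all tested genes. The region is bounded by class II genes. It holds 5 of the 10 genes described here, and also H2-DMb2, H2-Oa and H2-Ob, whose calls were given above. Apart from these class II genes only Psmb9 and Psmb8 rose, so the count of 10 largely restates earlier calls. H2-Ab1 spans 34257689 to 34269419, H2-Aa 34282744 to 34287823 and H2-Eb1 34305867 to 34316674. The 4 class I processing genes that lie between H2-DMb1 and H2-Ob differed in direction. Psmb9 and Psmb8 rose by 0.66 and 0.50 on the log2 scale, Tap2 fell by 1.17, and Tap1, at -0.60, did not pass. Calls of Psmb9 and Psmb8 were lost with library totals as the only scaling and with the length and GC offsets, and that of Psmb8 also without aged library 1, aged library 2 or young library 1. Brd2, next to H2-DMa, stood at a log2 change of -0.83 (edgeR adjusted p = 0.0544) and missed the threshold, though it passed without aged library 3 and in 5 other alternatives.

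**Figure D4:**
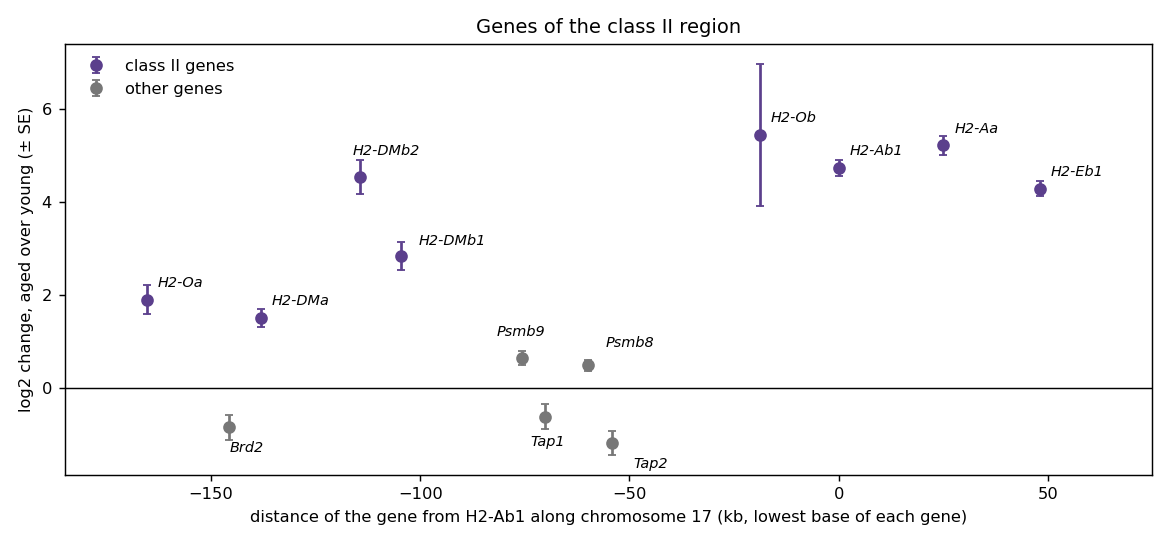
Log2 change (aged over young, with standard error) of the 13 tested genes of the class II region against their distance from H2-Ab1 in kb. The 8 class II genes (purple) lie between 1.51 and 5.44, and Brd2, Psmb9, Tap1, Psmb8 and Tap2 (grey) between -1.17 and 0.66.

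The genes whose profile over the 6 libraries lay nearest to the mean profile of H2-Aa, H2-Ab1 and H2-Eb1 were sought by the root mean square distance of centred log2 CPM. Outside the 10 genes and predicted genes these were Hsd17b1, Trim15, Xpnpep2, Fam183b and Atp10b, at distances of 0.230 to 0.286. For comparison, H2-Eb1, H2-Aa and H2-Ab1 lay at 0.237, 0.288 and 0.133 from that mean, which they form, and Cd74 at 0.892. Hsd17b1, Trim15, Xpnpep2 and Atp10b had 0 counts in young libraries and between 36 and 70 counts in aged libraries, so their distance depends on the prior count of 2. Fam183b had 1614, 2018 and 1230 counts in aged libraries, against 90, 147 and 72 in young libraries.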

How the data were processed

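The authors deposited a table of raw counts per gene symbol and library. Per the submitters' processing notes, the build was mm10 and the tools named are STAR 2.5.3a, Cufflinks 2.0 and DESeq2 1.1, with FastQC 1.0.0 and bcl2fastq 2.20.0.422. Which tool counted reads, with what annotation and strandedness, is not given in the sources used here, so reads of overlapping or antisense genes cannot be told apart. Counts were tested with edgeR 4.0.16 in R 4.3.3 (filterByExpr with minimum count 10 and minimum total 15, TMM, glmQLFit and glmQLFTest, Benjamini-Hochberg). Standard errors were derived from each log2 change and its F statistic. The edgeR fit was first tried on simulated data, drawn with the means and dispersions of these libraries, in which only large changes were set. Small changes were not covered by that check. Coordinates, exon-union lengths and overlaps came from GENCODE vM21 (GRCm38), matched by symbol for 95.6% of rows, and promoters from RefSeq GRCm38.p6. Symbols of 27 rows had turned into dates and are never named. Ratios within a library were compared by two-sided exact permutation. Named genes were the 10 members, called genes of 4 pathway lists, further core genes of those lists, markers of other cells and 5 genes of like profile; genes of the region, and Zbtb32, were added after their values were seen. The members and lists were chosen with earlier results of these data known. Alternatives were DESeq2 1.42.0, limma-voom (limma 3.58.1), other scalings and filters, robust dispersion, a replicate block, length and GC offsets, and leaving out each library. Intervals and floors cover counting error only. Some genes of the lists are counted but not reported here by name.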

Additional observations from a re-analysis of the deposited data

How the results depend on the processing

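All 170 alternative values of the 10 genes kept their side of the threshold: the 6 presentation genes were called higher under each of 17 alternatives, with log2 changes from 1.09 to 1.64 for H2-DMa up to 4.79 to 5.34 for H2-Aa, and no regulator was called. Of 1013 alternative values of 60 other named genes, 112 lost a call, 12 gained one and none reversed. Over all genes, 2286 were called, and the count ran from 1314 to 2141 when a library was left out, lowest without young library 1 and 1515 without young library 2. Calls in the higher direction numbered 1325, or 718 with library totals only, and 915 to 1344 with a library left out. Calls in the lower direction numbered 961, or 2380 with library totals only and 492 with the replicate block and the length and GC offsets together, and 399 to 849 with a library left out (480 without young library 2). Library totals moved the median log2 change of tested genes from -0.101 to -0.517, so directions are relative to the TMM scaling. Deviations from the group means correlated at 0.00883 to 0.0414 between same-numbered libraries, and at -0.0273 to 0.0125 between the others. Of 6 libraries 5 were closest to their own number. Correlations this small, from 3 libraries a group, cannot decide whether the numbers pair libraries. With the replicate block 2008 genes were called, of which 1208 were higher. The count of 23 ratios without overlap ran from 23 to 24. With 3 libraries a group and a biological coefficient of variation of 53%, genes near the level of Ciita and Rfx5 are measured with wide error.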

Other observations

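Of the 17 promoters with the X-box letters followed by the reversed Y-box core, 14 belonged to genes of the count table and 8 of those genes were tested. The genes called among them were H2-Eb1, H2-DMb1 and Zbtb32, all higher in aged libraries, beside 11.2% of all tested genes. The letters are those of class II promoters, and H2-Eb1 and H2-DMb1 are among the 10 genes already described, so their calls add nothing new here. Outside the 10 genes only Zbtb32 was called. Zbtb32, a zinc finger repressor of lymphocytes also known as repressor of GATA, had 13273, 14364 and 10605 counts in aged libraries, against 3031, 4519 and 3773 in young libraries, a log2 change of 2.24 ± 0.16 (SE; edgeR adjusted p = 9.69e-06). It was called in all 17 alternatives and was singled out after its value was seen. The other 5 tested genes, Cdv3, Gpr108, Hnrnpa1, Rnf103 and Stx5a, did not pass, with log2 changes from -0.33 to 0.48. The match describes letters in a promoter window and no binding was measured.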
